A study of Mus musculus with 6 samples.

Results

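The genes of the Eya, sine oculis homeobox and Dach families examined here were Eya1, Eya2, Eya3, Eya4, Six2, Six4 and Dach1, 7 of the 19935 genes that had a probe set annotated to their symbol alone. They were taken as interacting regulators and chosen by 1 measured value, the difference of Eya1 between the groups, which was known to be high on the knockout arrays; that difference is therefore described here and not tested. Each of the 7 genes had 1 probe set, and all 7 probe sets had a value on every array. The RNA came from the cervical cord of mice at E 11.5, from which the dorsal part and the floor plate had been removed. There were 3 arrays labelled Nkx2.9 knockout (A, B and C) and 3 wild-type arrays (A, B and C), and no other allele, treatment or sex was given. The stated aim was to find genes downstream of the homeodomain factor Nkx2.9 in spinal accessory motor neurons, and the labels did not say whether an array held 1 embryo or a pool, so p-values measure only the spread between these samples, which may be technical.

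Eya proteins are transcriptional coactivators that cannot bind DNA on their own and also carry a phosphatase activity. They are brought to DNA by sine oculis homeobox proteins such as Six4, which bind it through a homeodomain, and Dach proteins, relatives of Ski, act with them as cofactors that often repress. The genes are the vertebrate counterparts of the Drosophila eye genes eyes absent, sine oculis and dachshund, and with Pax genes they act in the ear, the kidney, cranial placodes, muscle precursors and sensory ganglia. Somites and sensory ganglia lie beside the cord, and tissue next to it can also carry these transcripts.

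Every value below is a log2 expression value less the middle value of the same probe set over all 6 arrays. A value of 0 is therefore the middle of the 6 arrays and says nothing of the expression level, so neither detection of a gene, nor its level against another gene, nor the presence of the defining markers of the labelled tissue could be checked. In bulk tissue, fewer cells of a type and less RNA per cell cannot be told apart. The table had 28815 probe sets, 28791 of them complete, and array medians lay between -0.0067 and 0.0090. Nkx2-9 itself was at -0.071, 0.26 and 0.11 on knockout A, B and C, against -0.21, 0.071 and -0.11 on wild-type A, B and C. The targeted gene was thus not lower on the arrays labelled knockout (difference 0.18, SE 0.11), and whether its probes lie in the deleted part was not known here. The groups are named by their labels throughout, and every direction rests on them. Xist, the X-inactivation RNA, stood at 4.56 and 4.91 on knockout B and C and at 0.11 on knockout A, against -0.25 to -0.11 on the wild-type arrays. High Xist was thus found on 2 of 3 knockout arrays and 0 of 3 wild-type arrays. Knockout C had the widest spread of values, with an SD over probe sets of 0.191 against 0.0979 to 0.140 on the other 5 arrays.

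Eya1, a coactivator whose loss in mice removes kidneys and malforms the ear, was at 0.35, 0.15 and 0.81 on knockout A, B and C, against -0.15, -0.24 and -0.15 on wild-type A, B and C. All 3 knockout arrays lay above all 3 wild-type arrays, with C far above the other knockout arrays, and the wild-type arrays were close together. The mean was 0.43 ± 0.34 on the knockout arrays and -0.18 ± 0.052 on the wild-type arrays (SD, n = 3 each), a difference of 0.61 on the log2 scale (SE 0.16), or 1.53-fold. Eya1 was the 1 member of 7 whose groups did not overlap. This was so with the knockout higher in 6.68% of complete probe sets, and nothing is read from the count because the same contrast chose the gene. The range of Eya1 over the 6 arrays, 1.04, was wider than that of 98.5% of complete probe sets.

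**Figure D1:**
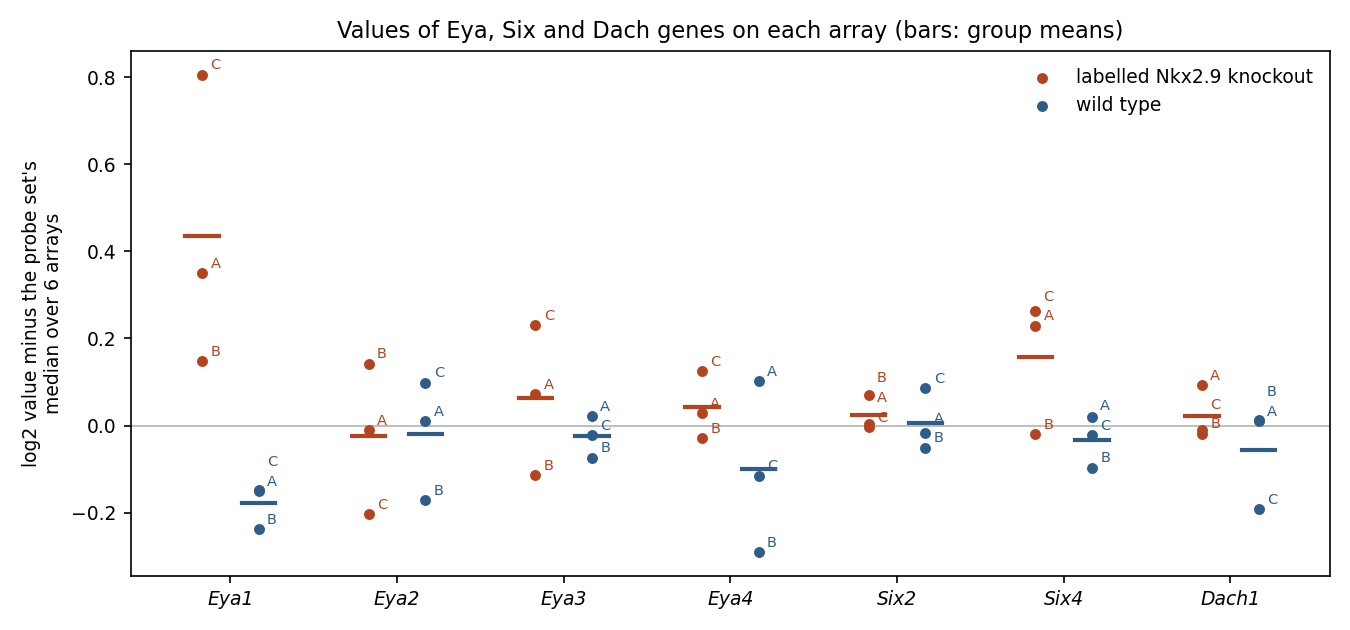
Centred log2 values of the 7 genes (vertical axis) on each array, with letters for the arrays, knockout points left of wild-type points and horizontal bars for group means (n = 3 arrays each). Eya1 has its 3 knockout arrays between 0.15 and 0.81 and its wild-type arrays between -0.24 and -0.15, while the groups of the other genes overlap.

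The knockout array C carried part of the Eya1 difference. That knockout A and B lay above every wild-type array is already given by the values above. Without knockout C the difference was 0.43. Without knockout B it was 0.76, and without knockout A or single wild-type arrays between 0.58 and 0.65. When high Xist was entered as a further term, which leaves knockout A set against the wild type, it was 0.53. That value restates knockout A against the wild-type mean, and the part of sex in the Eya1 difference was not tested.

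The remaining Eya genes encode coactivators of the same type, and none passed the comparison of the groups in limma with Benjamini-Hochberg adjustment over all probe sets. In this fit 0 of 28815 probe sets (0%) passed an adjusted p of 0.05, the lowest adjusted p being 0.812, and 1605 (5.57%) had an unadjusted p under 0.05, among them 0 of the 6 members other than Eya1. Eya4, known for its role in hearing and heart muscle, was at 0.028, -0.028 and 0.13 on knockout A, B and C, against 0.10, -0.29 and -0.11 on wild-type A, B and C. The groups overlapped, because wild-type A lay between knockout C and knockout A. The difference was 0.14 (SE 0.10, 95% interval -0.11 to 0.39, limma adjusted p = 0.821). It was 0.24 with wild-type A left out and 0.048 with wild-type B left out.

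Eya3, the Eya gene known for broad expression, was at 0.073, -0.11 and 0.23 on knockout A, B and C, against 0.023, -0.074 and -0.023 on wild-type A, B and C. Knockout C was the highest array and knockout B the lowest, so the wild-type arrays lay inside the range of the knockout arrays. The difference of 0.088 (SE 0.090, 95% interval -0.13 to 0.30, limma adjusted p = 0.868) was 0.0041 without knockout C and 0.18 without knockout B. Eya2, which is known from sensory placodes and muscle precursors, was at -0.011, 0.14 and -0.20 on knockout A, B and C, against 0.011, -0.17 and 0.099 on wild-type A, B and C. The arrays of both groups covered nearly the same range. The group means were -0.024 ± 0.17 on the knockout arrays and -0.020 ± 0.14 on the wild-type arrays (SD, n = 3 each), with a difference of -0.0040 (SE 0.11, 95% interval -0.26 to 0.26, limma adjusted p = 0.997) that changed sign in 6 alternative settings. Eya2 was lowest on knockout C, the array on which Eya1, Eya3 and Eya4 were highest.

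Six4 encodes a homeodomain protein that binds DNA and brings Eya coactivators to it, and in mouse muscle it acts at sites called MEF3. Of the members, 5 of 7 had a promoter window in the RefSeq table for build GRCm38.p6 (250 bases before to 50 bases after a gene's start), and Eya1 and Eya2 were not among them. One Six4 window is shown because Six4 had the largest difference among the members after Eya1 and because this window held the MEF3 letters; that of Six5 is shown because its values ran closest to those of Six4. Capitals mark the match to TCAGGTTTC, read on the opposite strand, which lies 91 to 99 bases before the start used for this window. Six4 had another annotated start upstream of this one, with its window at 73113376-73113675. The match lies after that other start and outside its window.
Six4, GRCm38.p6 chr12:73113196-73113495, minus strand: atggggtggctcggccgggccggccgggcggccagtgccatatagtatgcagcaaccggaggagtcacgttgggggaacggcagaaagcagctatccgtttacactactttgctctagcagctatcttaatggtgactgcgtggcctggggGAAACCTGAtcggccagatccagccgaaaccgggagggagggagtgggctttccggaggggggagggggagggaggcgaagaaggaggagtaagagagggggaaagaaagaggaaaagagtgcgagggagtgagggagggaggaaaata
Six5, GRCm38.p6 chr7:19094294-19094593, plus strand: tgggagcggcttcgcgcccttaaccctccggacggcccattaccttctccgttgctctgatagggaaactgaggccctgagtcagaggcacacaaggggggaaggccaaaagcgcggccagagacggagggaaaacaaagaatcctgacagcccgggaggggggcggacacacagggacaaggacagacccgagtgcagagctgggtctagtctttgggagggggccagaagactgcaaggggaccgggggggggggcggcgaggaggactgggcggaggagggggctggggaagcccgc
The 9 letters TCAGGTTTC, searched on both strands, were in 141 of 32851 windows (0.429%), and the shorter TCAGGTT, which lies inside them, was in 1337 windows (4.07%). Six6 held TCAGGTT, while the windows of Eya3, Eya4, Six2, Six3, Six5, Dach1 and Dach2 and the other window of Six4 held neither. The letters TNAAGTG, a motif of NK2-class homeodomain proteins such as Nkx2.9, were in 11.5% of windows and in none of these genes. A match is a description of the letters and shows no binding, and a window without one says nothing of the factor.

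Six4 itself was at 0.23, -0.020 and 0.26 on knockout A, B and C, against 0.020, -0.096 and -0.022 on wild-type A, B and C. Knockout A and C were higher than all wild-type arrays, while knockout B lay among them. The means were 0.16 ± 0.15 on the knockout arrays and -0.033 ± 0.059 on the wild-type arrays (SD, n = 3 each). The difference of 0.19, or 1.14-fold (SE 0.084, 95% interval -0.012 to 0.39), exceeded the SDs of both groups but failed the test (limma adjusted p = 0.812). It lay between 0.14 and 0.28 with single arrays left out, at 0.14 without knockout C and at 0.28 without knockout B.

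Six2, a homeodomain factor best known for keeping nephron progenitors undifferentiated, was at 0.0028, 0.071 and -0.0028 on knockout A, B and C, against -0.017, -0.051 and 0.086 on wild-type A, B and C. The highest and the lowest array were both wild type, and the range of 0.136 was the smallest of the members, wider than in 22.0% of complete probe sets. The difference was 0.018 (SE 0.052, 95% interval -0.11 to 0.14, limma adjusted p = 0.970) and changed sign in 3 alternative settings. Dach1, the Ski-related cofactor, was at 0.093, -0.019 and -0.011 on knockout A, B and C, against 0.011, 0.014 and -0.19 on wild-type A, B and C. Wild-type C stood below the other 5 arrays, which lay close together. The difference was 0.077 (SE 0.071, 95% interval -0.095 to 0.25, limma adjusted p = 0.853), and it was 0.0087 without wild-type C.

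**Figure D2:**
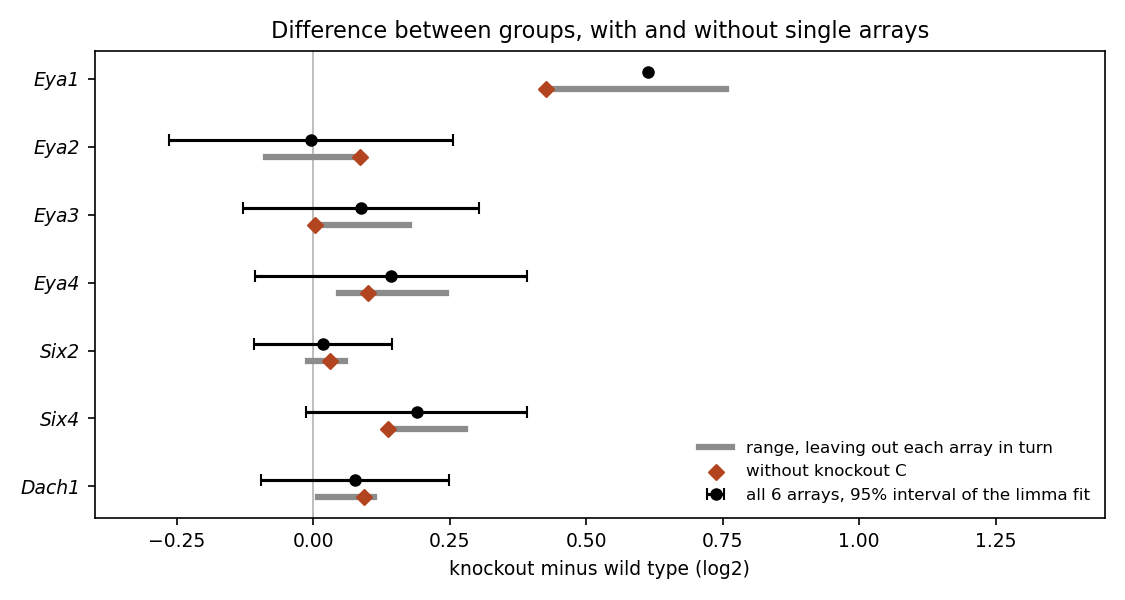
Knockout minus wild type on the log2 scale for each gene (horizontal axis), as black points with 95% intervals of the limma fit for the genes other than Eya1, grey lines for the range over fits that leave out 1 array, and diamonds for the fit without knockout C. Eya1 lies at 0.61 with a range of 0.43 to 0.76, and the intervals of the other 6 genes include 0.

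The members differed in how they varied from array to array, and part of the group shared 1 order. Eya1, Eya3, Eya4 and Six4 were each highest on knockout C, then A, then B among the knockout arrays, and each was lowest on B among the wild-type arrays. Both features together were found in 2066 of 28791 complete probe sets (7.18%). The features were picked from these same values, so nothing is read from that share. Six5, a homeobox paralog outside the 7 members, had both features too. Over the 6 arrays the Pearson correlation with Eya1 was 0.898 for Six4 (Spearman rho 0.829), 0.901 for Six5 (rho 0.771), 0.803 for Eya3 (rho 0.60) and 0.648 for Eya4 (rho 0.657). For Eya2 it was -0.379 (rho -0.20), for Dach1 0.306 (rho -0.086) and for Six2 -0.00072 (rho 0.43). Six4 and Six5 had a correlation of 0.973 with each other (rho 0.943). These are descriptions over arrays that fall into the same 2 groups, and no p is given. Eya2 and Six2 ran together instead, with a correlation of 0.798 (rho 0.657), and both were highest on knockout B among the knockout arrays and on wild-type C among the wild-type arrays.

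**Figure D3:**
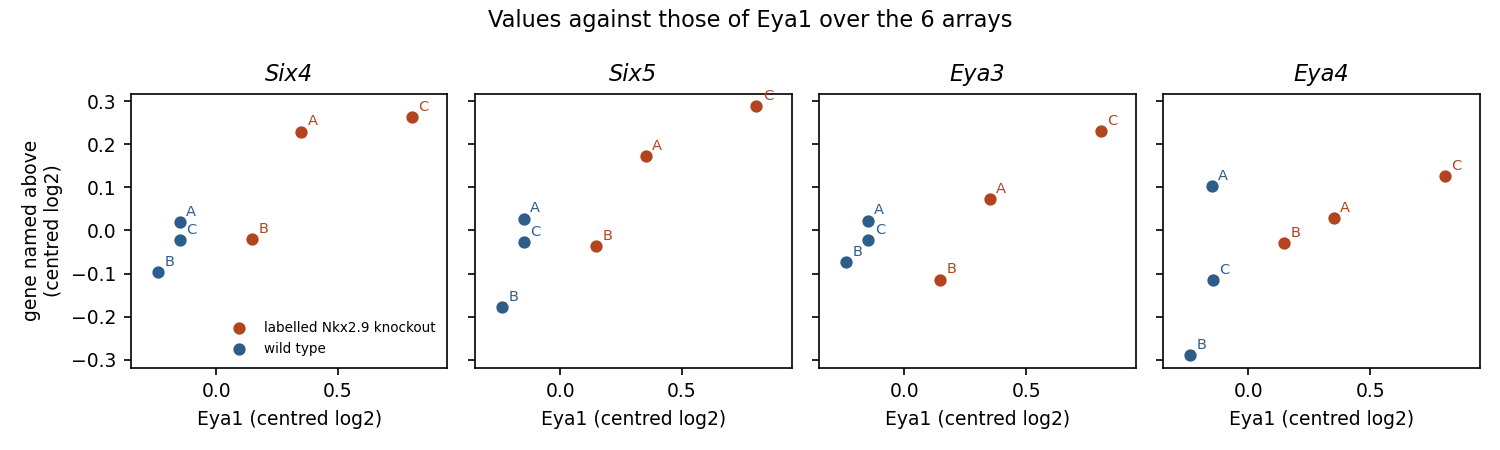
Centred log2 values of Six4, Six5, Eya3 and Eya4 (vertical axes) against those of Eya1 (horizontal axes) on the 6 arrays, lettered within each group. In each panel knockout C is at the upper right and wild-type B lies left, and knockout B is at -0.020 for Six4 and -0.11 for Eya3, level with or below the wild-type arrays.

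The genes with the pattern most like Eya1, by Pearson correlation over the 6 arrays among genes with 1 symbol, were Magt1, a subunit of oligosaccharyltransferase (0.998), Ropn1 (0.996), the Notch ligand gene Dll3 (0.994), Ap3b1, a subunit of the AP-3 adaptor complex (0.994), and Mxra8 (0.993). Dll3 was at 0.085, 0.034 and 0.25 on knockout A, B and C, against -0.042, -0.086 and -0.034 on wild-type A, B and C, which is the order of Eya1 on a smaller scale. Ropn1 covered a range of 0.061, wider than in 3.03% of complete probe sets. With 6 arrays such values are common, since 647 of 28790 other probe sets (2.25%) had a correlation with Eya1 above 0.9. Six4 stood above 97.7% of complete probe sets in this measure, and Eya3 above 92.7%.

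The remaining sine oculis homeobox and Dach genes and the Pax genes were compared as a list of partners. Of 13 genes 12 were analysed here, and 0 passed an adjusted p of 0.05 in limma, or an unadjusted p under 0.05. In this list 6 were higher and 6 lower on the knockout arrays, with a median difference of -0.0025 beside 0.0087 over all probe sets, where 55% were higher. Six5, a homeodomain factor next to the myotonic dystrophy locus, was at 0.17, -0.037 and 0.29 on knockout A, B and C, against 0.028, -0.18 and -0.028 on wild-type A, B and C. Its groups overlapped through knockout B, and its difference of 0.20 (SE 0.097; limma adjusted p = 0.812) was 0.13 without knockout C. Dach2, the paralog of Dach1, was at 0.086 (SE 0.099), Six3 at 0.017 and Six6 at -0.036.

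Pax2, which marks several classes of spinal inhibitory interneuron, was among the 3 genes of lowest p and did not pass the test. It was at -0.16, -0.0044 and -0.59 on knockout A, B and C, against 0.046, 0.0044 and 0.17 on wild-type A, B and C. It was the 1 gene of the list whose groups did not overlap, which was the case with the knockout lower in 4.25% of complete probe sets. Its difference was -0.33 (SE 0.15) and was -0.16 without knockout C. Pax5, its close paralog, was at -0.31 (SE 0.13), and Pax8 at -0.19 (SE 0.15), or -0.021 without knockout C. Pax6, a factor of cord progenitors, was at 0.10 (SE 0.070) and Pax9, a sclerotome factor, at 0.12 (SE 0.12). Pax3, a factor of the dorsal cord and of muscle precursors that acts with Eya and homeobox partners in the somite, was at -0.82 on knockout C and -0.94 on wild-type B, while the 4 remaining arrays lay between -0.035 and 0.32. Pax3, Pax6, Pax8 and Pax9 were named after their values were seen.

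**Figure D4:**
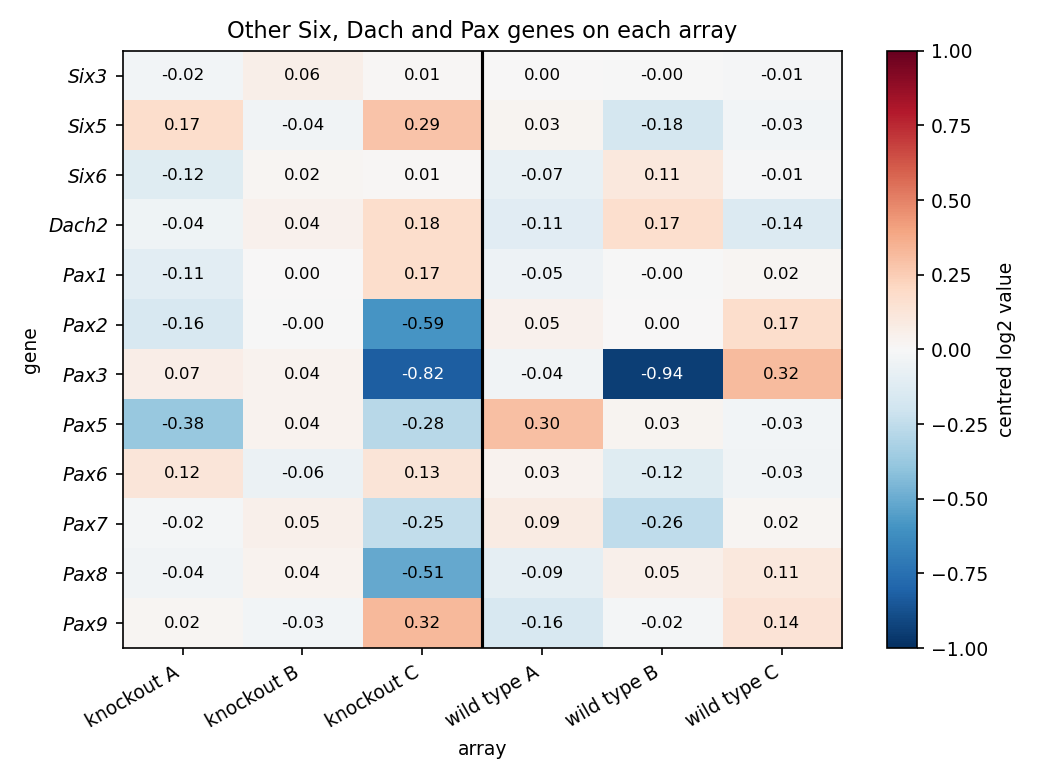
Centred log2 values of 12 further homeobox, Dach and Pax genes (rows) on each array (columns), knockout arrays left of the line and wild-type arrays right of it, with red for values above the probe set's median and blue for values below. Six5 has its highest values, 0.29 and 0.17, on knockout C and A, and Pax3 is low on knockout C and wild-type B.

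Corepressors and binding partners of these proteins made up another list, of which 15 of 17 were analysed here and 0 passed an adjusted p of 0.05 in limma. At an unadjusted p under 0.05, 0 were higher and 2 were lower on the knockout arrays, beside 2.5% lower among all probe sets. These were Tle4 and Tle5, of the Groucho family, some members of which can bind sine oculis homeobox proteins as corepressors. Of the other members of that family, Tle1 was at 0.24 (SE 0.14), Tle2 at 0.030 (SE 0.049) and Tle3 at -0.021 (SE 0.073), all named after their values were seen. Tle4 was at -0.22, -0.047 and -0.18 on knockout A, B and C, against 0.079, 0.23 and 0.047 on wild-type A, B and C. All knockout arrays lay below all wild-type arrays, which was the case in 4.25% of complete probe sets. The difference of Tle4 was -0.27 (SE 0.071, limma adjusted p = 0.812) and -0.25 without knockout C. Tle5 was at -0.062, -0.024 and -0.13 on knockout A, B and C, against 0.024, 0.14 and 0.050 on wild-type A, B and C, with a difference of -0.14 (SE 0.052; limma adjusted p = 0.812). Hdac1, a histone deacetylase, was at 0.10 (SE 0.058). The median difference of the list was -0.015.

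Genes known as targets of Eya proteins and their homeobox partners in muscle, kidney, ear or ganglia were all analysed here (16 of 16), and 0 passed an adjusted p of 0.05 in limma. Their median difference was 0.012, with 11 higher and 5 lower, beside 55% higher among all probe sets. At an unadjusted p under 0.05 there was 1 higher, beside 3.07% among all probe sets, and 0 lower. This was the proneural gene Neurog1, at 0.035, 0.071 and 0.21 on knockout A, B and C, against -0.035, -0.061 and -0.069 on wild-type A, B and C. Its groups did not overlap, which was the case with the knockout higher in 6.68% of complete probe sets. Its difference was 0.16 (SE 0.056, limma adjusted p = 0.812), or 0.11 without knockout C. Neurod1, which follows neurogenins in sensory neurons, was at 0.83 on knockout C and -0.55 on wild-type C, with the 4 remaining arrays between -0.0083 and 0.18. Ezr, the ezrin gene, was at -0.14 (SE 0.10).

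Markers of mesenchyme, which lies beside the cord, and of vessels moved on the array where Eya1 was highest. Of 15 mesenchyme and sclerotome genes, 14 were highest on knockout C, as were 27.1% of complete probe sets. Their mean value was 1.04 on that array and -0.019 and -0.037 on knockout A and B, against -0.079, 0.30 and -0.0024 on wild-type A, B and C. Wild-type B thus had the next highest mesenchyme mean, and the lowest Eya1 value of all arrays. Of the vessel genes 8 of 9 were highest on knockout C, where their mean was 0.73, against -0.17 to 0.11 on the other arrays. Which of these markers were at background could not be seen in centred values. Without knockout C the median difference was -0.041 for the mesenchyme list and -0.069 for the vessel list, against 0.12 and 0.26 with all arrays. The part of mesenchyme or vessel in the Eya1 values was not tested, on knockout C or on the other arrays.

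**Figure D5:**
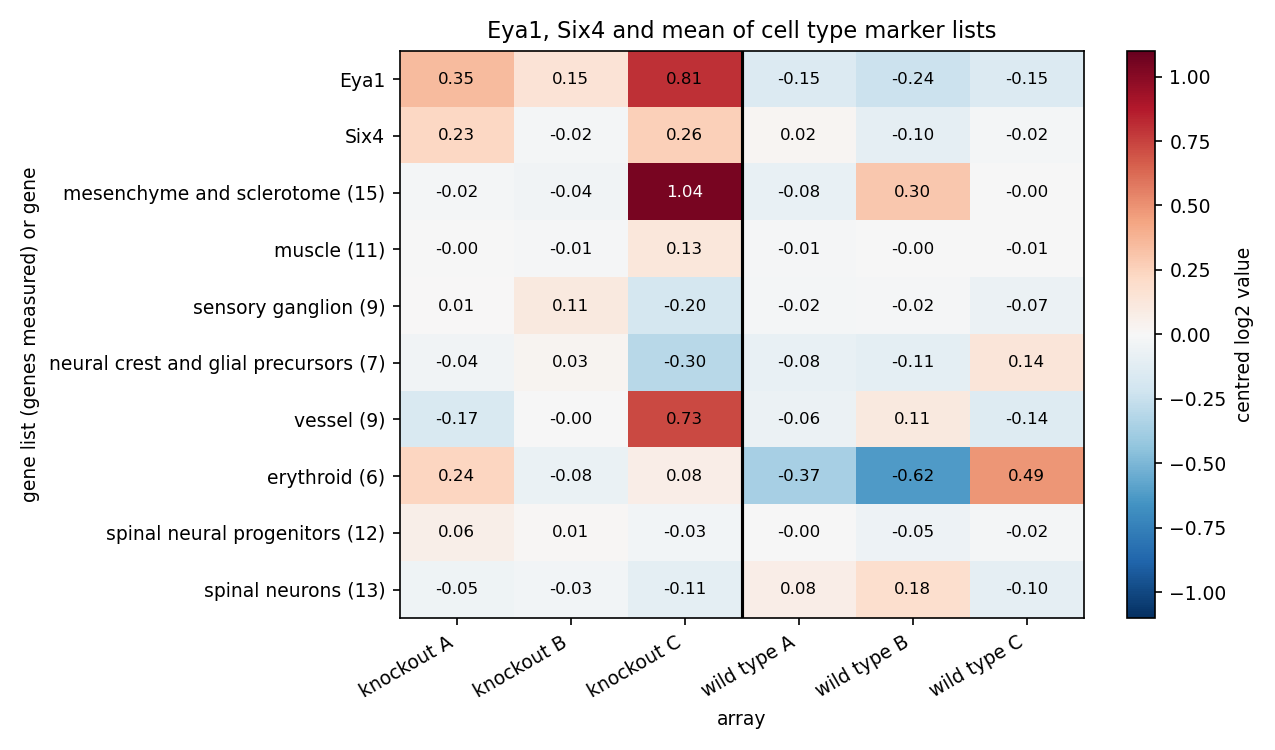
Centred log2 values of Eya1 and Six4 (first rows) and the mean of each cell type marker list, with its number of genes, on each array (columns), knockout arrays left of the line. Knockout C has the highest mesenchyme mean, 1.04, and vessel mean, 0.73, together with the highest Eya1 value, while wild-type B has a mesenchyme mean of 0.30 and the lowest Eya1 value.

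Muscle and sensory ganglion genes were also examined, since Eya genes are expressed in both tissues. The 11 muscle genes had means between -0.012 and 0.13 on the knockout arrays, the highest on C, and between -0.014 and -0.0021 on the wild-type arrays. Tnnt1, a slow troponin gene, was at 0.72 on knockout C and at 0.030 and 0.039 on knockout A and B, against -0.19 to -0.030 on the wild-type arrays. Tnnt2 was at 0.11 (SE 0.091) and the myogenic factor gene Myog at -0.074 (SE 0.055). The muscle list held no common direction, with 5 higher and 6 lower, beside 55% higher among all probe sets. Of 11 sensory ganglion genes 9 were analysed here, and their mean was lowest on knockout C, at -0.20, against -0.067 to 0.11 on the other arrays. Of these genes 4 were lowest on knockout C and 1 was highest there. Whether their transcripts came from ganglion or cord cells could not be told in bulk tissue. In that list 5 genes were higher and 4 lower on the knockout arrays, beside 55% higher among all probe sets. At an unadjusted p under 0.05, 2 were higher, beside 3.07% among all probe sets, and 0 lower. These were Isl2 and Runx3, both at 0.18 (SE 0.067 and 0.071; limma adjusted p = 0.812 for each), and Prrxl1 was at 0.11 (SE 0.057). The neurotrophin receptor gene Ntrk2 was at -0.37 (SE 0.23) and Pou4f1, a sensory neuron factor, at -0.18 (SE 0.19), both named after their values were seen. The neural crest and glial list (7 of 9 genes) had 4 genes higher and 3 lower on the knockout arrays, beside 55% higher among all probe sets. Its members did not move together on knockout C, where 3 were at their highest and 3 at their lowest. Their mean there was -0.30, against -0.11 to 0.14 on the other arrays. Tfap2a and Tfap2b, which are also made in the dorsal cord, were at -1.38 and -1.88 on knockout C and -0.63 and -0.51 on wild-type B, the arrays on which Pax3 was low. Egr2, Erbb3 and Sox10, genes of the glial lineage, were at 0.52, 0.43 and 0.25 on knockout C, and the difference of Erbb3 was 0.11 (SE 0.15). Egr2 and Sox10 were named after their values were seen.

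Markers of the cord itself and of blood cells were compared in the same way. Spinal progenitor genes (12 of 12) had means between -0.029 and 0.063 on the knockout arrays and between -0.052 and -0.00016 on the wild-type arrays. Of them 6 were higher and 6 lower, beside 55% higher among all probe sets. Nkx6-1, a ventral progenitor factor, was at 0.24 (SE 0.10), Sox3 at 0.15 (SE 0.067) and Fabp7 at -0.094 (SE 0.052). Spinal neuron genes had means of -0.049, -0.026 and -0.11 on knockout A, B and C, against 0.076, 0.18 and -0.099 on wild-type A, B and C. The groups overlapped, because wild-type C lay below knockout A and B. Of the 13 genes, 9 were highest on wild-type B and 8 were lowest on knockout C. The list had a median difference of -0.11, which was -0.065 without wild-type B and -0.074 without knockout C. In it 2 of 13 were higher and 11 lower on the knockout arrays, beside 55% higher among all probe sets, and 1 was lower at an unadjusted p under 0.05, beside 2.5% of all probe sets. This was the RNA-binding protein gene Elavl3, at -0.13 (SE 0.044; limma adjusted p = 0.812), and Snap25 and Stmn2 were at -0.27 (SE 0.12) and -0.21 (SE 0.094). The 6 of 8 erythroid genes analysed here had means between -0.077 and 0.24 on the knockout arrays and between -0.62 and 0.49 on the wild-type arrays, among them Hbb-bh1 (0.34, SE 0.22), Hba-x (0.14, SE 0.12) and Epb42 (0.34, SE 0.36). For vessels, Pecam1 was at 0.26 (SE 0.18), Flt1 at 0.24 (SE 0.18) and Kdr at 0.40 (SE 0.30), which became 0.075, 0.029 and 0.042 without knockout C. For mesenchyme, Tbx18 was at 0.091 (SE 0.061), Meox1 at 0.26 (SE 0.17) and Prrx1 at 0.54 (SE 0.46), which became 0.040, 0.049 and -0.028 without knockout C.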

How the data were processed

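RNA of cervical spinal cord was amplified to sense cDNA and biotin-labelled, per the labels' protocols. The authors used RMA to make the deposited log2 values, per the submitters' processing notes; its version, its settings and the genome build are not given in the sources used here, and base 2 was taken because RMA gives it. In all 28791 complete probe sets the median over the 6 arrays was 0 within 1e-06, so the deposited values were centred per probe set, which leaves differences unchanged and hides levels. There were 24 probe sets with no value on wild-type C, fitted on 5 arrays. Symbols came from the platform annotation (21780 probe sets with 1 symbol, 1605 with several, 5430 with none); a gene with several probe sets was represented by the one with the most accessions. Older list symbols were updated through the RefSeq table of GRCm38.p6, whose coordinates are printed only for promoter windows.

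Genotype was compared on all 6 arrays in limma 3.58.1 under R 4.3.3, with lmFit and eBayes and no covariate; p-values were adjusted by Benjamini-Hochberg across the whole table, and 0.05 was the threshold. The fit was tested on simulated data with planted changes larger than the difference of any member. That test says nothing of the power of the fit at the sizes reported here. Standard errors and intervals are from the moderated fit, SDs are over 3 arrays, and the number of arrays limits the precision. No array pair held identical values (0 of 15). Figures used matplotlib 3.10.9 in Python 3.11.15. Alternatives were the letter as a block, quantile normalization, arrays centred on their medians, a robust prior, array weights, high Xist (centred value above 1) as a covariate, 1 probe set per gene, the mean over a gene's probe sets, and leaving out each array.

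The members and lists were chosen with earlier results of these data known. The genes named by rule were the members, the 3 of lowest p in each list, Nkx2-9, Xist and the 5 most like Eya1. Predicted genes, clone names and receptors of smell were left out of those 5. Six3, Six6 and Dach2 of the partner list were named outside this rule, as were the genes said to be named after their values were seen. Arrays with the same letter had correlations of their deviations from the group means of 0.165, 0.217 and 0.0159 for A, B and C. The labels stated no batch and did not say that the letters mark shared litters, so the letters were not taken to pair the arrays.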

Additional observations from a re-analysis of the deposited data

How the results depend on the processing

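With single arrays left out, between 0 and 5 probe sets passed an adjusted p of 0.05 in limma, the 5 without knockout A, and 0 of the 6 members other than Eya1 passed in any of these fits. With the letter as a replicate block 0 probe sets passed. The count of 0 of 6 members at an unadjusted p under 0.05 depended on the setting. In limma the unadjusted p of Six4 was 0.026 with the block, 0.0034 without knockout B and 0.17 without knockout C. That of Eya3 was 0.046 without knockout B, and that of Eya4 was 0.026 without wild-type A. The array labelled knockout A and that labelled knockout B had their highest correlation of deviations with the wild-type array of their own letter, and knockout C did not. The other settings, including 1 probe set per gene, gave 0 calls. The block, the robust prior and the mean over a gene's probe sets leave the difference of a member as it is by construction. Under quantile normalization, centring of arrays, array weights, the Xist term and each array left out, Eya3, Eya4, Six4 and Dach1 stayed higher on the knockout arrays. The difference of Eya2 was 0.021 with quantile normalization, 0.032 with array weights and 0.0091 with the Xist term, and ran from -0.087 to 0.086 with single arrays left out. That of Six2 was -0.0031 with the Xist term and ran from -0.010 to 0.058. The cause was not tested. For the mesenchyme list the median difference ran from -0.041 to 0.21, and for the vessel list from -0.069 to 0.41, both lowest without knockout C. For the spinal neuron list it ran from -0.15 to -0.065. Signal over background could not be seen in centred values, so a small difference may belong to a gene that was not detected.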
